A study of Arabidopsis thaliana with 11 samples.

Results

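Leaf 1 and leaf 2 are the pair of leaf samples of this study that were sequenced on a HiSeq2000, and they are set against each other here. They supplied 5 of the 11 libraries of the series, 3 from leaf 1 and 2 from leaf 2, and all of their libraries were used. Both samples were leaves of untreated wild type Arabidopsis thaliana, grown in greenhouse soil and taken at growth stage 6, when the first flower opens. The series covers 4 leaf samples and 2 samples of flower buds, all sequenced as read pairs from polyA-selected RNA. The numbered leaf samples carry no other difference in genotype, treatment or age, and whether they came from separate plants, and at what time of day they were taken, is not given in the sources used here.

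Each sample had a deep HiSeq run and a shallower multiplex run, in which several libraries share a lane. Leaf 1 had 192817049 read pairs in its HiSeq run and 41105722 in multiplex run 1a, and a further multiplex run, 1b, labelled as a technical replicate, had 37137723. Leaf 2 had 187815247 pairs in its HiSeq run and 37517338 in its multiplex run. The HiSeq run and multiplex run 1a of leaf 1 differed by little more than sampling noise, with a chi-square per degree of freedom of 1.03. The same held for both runs of leaf 2, at 1.02. The measure covers loci with enough pairs and does not show that every locus agreed. Run 1b stood further from run 1a, at 4.49. Between leaf 1 and leaf 2, multiplex run 1a and the multiplex run of leaf 2 stood at 250. The HiSeq runs stood at 1115 from each other, but this measure rises with depth. The runs that agreed to near sampling noise were kept apart in the calls but are taken as repeat sequencing of 1 library. Their agreement checks the sequencing alone. The comparison therefore rests on 1 biological sample against 1, no difference has a replicate check and no p-value is given.

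Plant leaves change their transcripts through the day. A circadian clock of repressors that act in turn, first CCA1 and LHY near dawn and later the PRR proteins and an evening complex, times photosynthesis genes, starch turnover and many stress genes. Defence runs through hormone branches: salicylate signalling marked by PR1, and jasmonate and ethylene signalling marked by defensins and vegetative storage proteins. Both branches are known to vary with the time of day and with attack or wounding.

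Ratios are given as log2 of leaf 1 over leaf 2, first between the HiSeq runs and then between the multiplex runs, with runs 1a and 1b summed. Levels are in CPM, which are read pairs brought to a common library size with TMM factors, in the order HiSeq, multiplex 1a and multiplex 1b for leaf 1, and HiSeq and multiplex for leaf 2. A locus is called higher or lower only where it was at least 2-fold higher or lower in leaf 1 in both run types, and it counts as measured with 20 or more pairs in either sample in each run type. Of 19321 measured loci, 2072 (10.7%) were higher in leaf 1 and 947 (4.9%) were lower, and 0 passed the fold in opposite directions in the 2 run types. At least 4-fold in both run types, 624 were higher and 147 lower. From the 5th to the 95th percentile the HiSeq ratio minus the multiplex ratio ran from -0.34 to 0.29 over all measured loci, and from -0.15 to 0.10 over the 11483 loci that averaged 10 CPM or more. With library size as the only scaling the median of all loci was -0.19, against 0.00 with TMM factors, and 1638 loci were higher and 1444 lower.

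**Figure D1:**
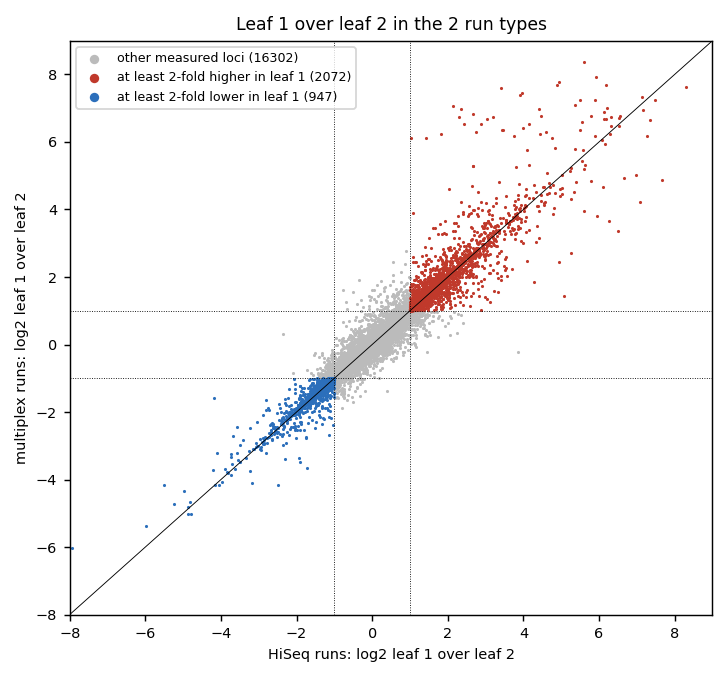
Each point is 1 of 19321 measured loci, with the log2 ratio of leaf 1 over leaf 2 in the HiSeq runs on the x axis and in the multiplex runs on the y axis. Dotted lines mark 2-fold, and the 2072 higher and 947 lower loci lie along the diagonal, with 0 loci past the fold in opposite directions.

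The sets of genes named here were described by their counts and medians, beside the 10.7% and 4.9% of all measured loci. Length moved with the ratio: the 4837 loci with the shortest sequences, 78 to 1038 bases, had a median HiSeq log2 ratio of 0.18, and the 4826 with the longest, 2059 to 16176 bases, had -0.22. With the median of each length class removed, 2012 loci were higher and 932 lower, of which 1898 and 819 were also called without that step. Leaf mesophyll markers summed to 66292, 66591 and 70364 CPM in leaf 1, against 31586 and 30999.5 CPM in leaf 2, and 4 of 6 were higher, but those 4 are genes of light harvesting and carbon fixation. Markers of pollen and anthers summed to 0.147, 1.33 and 2.1 CPM in leaf 1, against 0.188 and 1.7 CPM in leaf 2, those of floral organs to 1.15, 1.66 and 1.44 CPM against 1.37 and 1.68 CPM, and those of the shoot meristem to 0.229, 0.383 and 0.259 CPM against 0.168 and 0.0972 CPM. Guard cell markers summed to 43.1, 43.8 and 42.7 CPM against 45.3 and 44.7 CPM, those of trichomes to 19.3, 18.1 and 19.1 CPM against 20.9 and 20.1 CPM, and those of the root to 62.2, 63.5 and 69.1 CPM against 47.2 and 45.4 CPM, with 0 members past the fold. Of 6 epidermis markers 1 was higher, LTP1, a lipid transfer protein, with ratios of 1.43 and 1.44, and their sums were 1718, 1716 and 1734 CPM against 1501 and 1475 CPM. In leaf RNA as a whole, fewer cells of a type and less RNA per cell cannot be told apart.

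**Figure D2:**
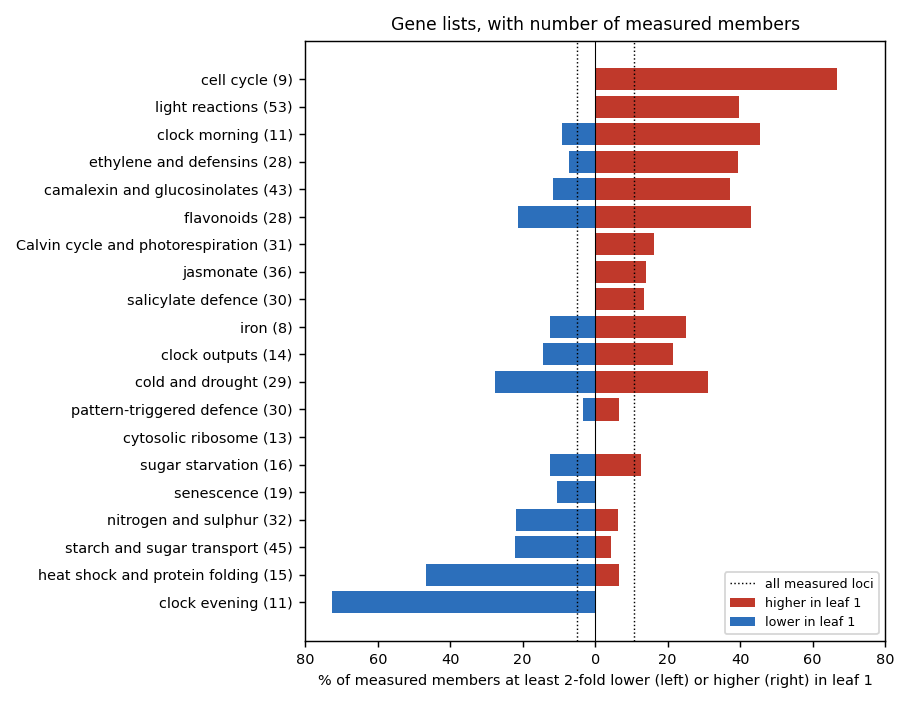
Bars give the percent of measured members of each of 20 gene lists that were at least 2-fold higher (right) or lower (left) in leaf 1 in both run types, with the number of measured members in brackets. Dotted lines mark the 10.7% and 4.9% of all measured loci; evening clock genes lie furthest to the left and cell cycle genes furthest to the right.

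By their medians, morning and evening genes of the clock differed in opposite directions. Of 11 measured morning genes, 5 were higher in leaf 1, 1 lower and 5 within 2-fold (median 0.98 and 1.0). Among 11 measured evening genes, 0 were higher and 8 lower (median -1.71 and -1.59). LHY, a MYB repressor that peaks at dawn, stood at 306, 310.1 and 300 CPM in leaf 1, against 24.2 and 24.3 CPM in leaf 2. Its ratios of 3.66 and 3.65 (exact 95% counting interval of the HiSeq ratio 3.61 to 3.7) amount to 12.6-fold higher levels in leaf 1. The runs of the samples did not overlap, which covers technical spread alone. CCA1, the partner of LHY, was higher by a smaller margin, at 367, 366 and 352 CPM against 151 and 149 CPM.

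The REVEILLE genes encode MYB-like proteins, of which RVE4 and RVE8 turn on evening genes with LNK coactivators. Both REVEILLE and LNK genes were part of the morning list. RVE8 stood at 84.7, 84.5 and 80.6 CPM in leaf 1 and 38.6 and 39 CPM in leaf 2, and RVE4 at 172, 176 and 156 CPM and 76.2 and 75.3 CPM. LNK2 stood at 750.5, 743 and 694 CPM in leaf 1, against 365 and 359.8 CPM in leaf 2, just past 2-fold with ratios of 1.04 and 1.0. RVE1, with ratios of 0.98 and 0.85, was short of 2-fold in both run types, RVE2, with 0.85 and 1.01, in the HiSeq runs alone, and LNK1 had -0.04 and -0.08. The day repressors PRR9 and PRR7 had ratios of -0.40 and -0.40 and of -0.42 and -0.36. RVE7, the lower member, stood at 14.6, 15 and 14.7 CPM in leaf 1, against 38 and 37.9 CPM in leaf 2. With library size as the only scaling, 2 of the morning genes were higher, and those that lost the call were RVE4, RVE8 and LNK2. LNK2 also missed the fold with DESeq2 size factors, with upper quartile factors and without multiplex run 1a.

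Evening genes were on the lower side. FKF1, a blue-light F-box protein, had 13, 2 and 6 pairs in the leaf 1 libraries, against 956 and 193 pairs in those of leaf 2, and ratios of -5.98 and -5.39 (interval -6.98 to -5.28). PRR3 and PRR5 are pseudo-response regulators that repress CCA1 and LHY, or stabilise those that do. PRR5 stood at 1.88, 1.79 and 1.84 CPM in leaf 1, against 24.9 and 26.4 CPM in leaf 2, with ratios of -3.72 and -3.86, and PRR3 had ratios of -4.82 and -4.66. All 3 members of the evening complex were lower: ELF4 with ratios of -1.81 and -1.84, ELF3 with -1.71 and -1.67 and LUX with -1.71 and -1.59. TOC1, the evening repressor of the central loop, stood at 9.35, 9.74 and 10.4 CPM in leaf 1 and 28.2 and 29.4 CPM in leaf 2, and GI, a scaffold that binds FKF1 and ZTL, at 69.3, 69.1 and 69.7 CPM and 177 and 171 CPM. ZTL, LKP2 and CHE had HiSeq ratios of -0.23, -0.10 and 0.58, within 2-fold, and BOA was not measured. The count of lower evening genes was also 8 under library size scaling and with length class medians removed.

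**Figure D3:**
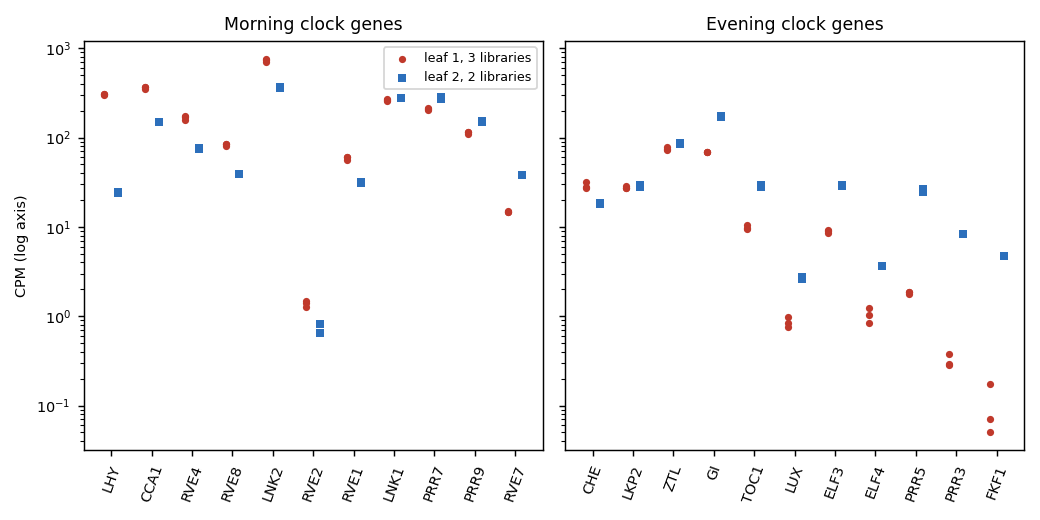
CPM on a log axis for the measured morning (left) and evening (right) clock genes, with 3 circles for the leaf 1 libraries and 2 squares for those of leaf 2. Leaf 1 lies above leaf 2 for LHY and CCA1 and below it for PRR5, PRR3 and FKF1, and the libraries of 1 sample lie close together except for FKF1 in leaf 1.

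Clock outputs were divided. Of 14 measured, 3 were higher and 2 lower (median 0.18 and 0.17). GRP7, an RNA-binding protein that oscillates under the clock, stood at 40.4, 41.4 and 45.6 CPM in leaf 1, against 469 and 463 CPM in leaf 2 (ratios -3.54 and -3.42). Its close relative GRP8 had ratios of -1.95 and -1.79, and reads of the pair may be split between them. The higher members were COR27, a cold-regulated repressor of clock genes, with ratios of 2.8 and 2.63, COL2, a B-box protein, with 1.31 and 1.4, and BBX19, a B-box protein of flowering, with 1.12 and 1.11. BBX19 missed the fold with library size as the only scaling and with length class medians removed. FT, the mobile flowering signal, stood at 24.2, 25.1 and 23.8 CPM in leaf 1 and 25.9 and 24.6 CPM in leaf 2.

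Most measured heat shock factors and cytosolic chaperones were lower in leaf 1. Of 10 measured, 0 were higher and 7 lower (median -2.41 and -2.4). Over the whole list of heat shock and protein folding, which also holds chaperones of the endoplasmic reticulum and small heat shock proteins, 1 of 15 was higher and 7 were lower (median -0.59 and -0.64), with the same counts when length class medians were removed. HSFA2, a heat shock factor that sustains the response, stood at 1.24, 1.1 and 1.09 CPM in leaf 1, against 34.5 and 35.5 CPM in leaf 2, with ratios of -4.8 and -5.01 (interval -5.0 to -4.61). HSP70, here the cytosolic chaperone locus AT3G12580, stood at 7.71, 6.31 and 7.52 CPM in leaf 1 and 122 and 117 CPM in leaf 2. HSP90.1, a stress-inducible chaperone, stood at 7.85, 7.26 and 7.86 CPM against 110.3 and 106 CPM. HSP101, which dissolves protein aggregates, had ratios of -2.92 and -2.88, the immunophilin ROF2 had -2.54 and -2.57, the coactivator MBF1C had -2.27 and -2.23 and the exchange factor FES1A had -2.05 and -2.0.

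Of 4 chaperones of the endoplasmic reticulum, 1 was higher and 0 lower. BIP3, its stress-induced HSP70, stood at 12.4, 11.4 and 10.7 CPM in leaf 1 and 4.57 and 4.3 CPM in leaf 2, and the near-identical BIP1 and BIP2 had HiSeq ratios of -0.29 and 0.23. The small heat shock proteins were at or near 0: HSP21 had 0 pairs in all 5 libraries, and of the small heat shock proteins listed only HSP18.2 was measured, with ratios of 0.60 and 1.22. In leaf 3 and leaf 4, sequenced on an older machine and given here for orientation, HSFA2 stood at 0.36 and 0.154 CPM and HSP70 at 4.58 and 5.8 CPM.

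Cold and drought genes went both ways, with 9 higher and 8 lower of 29 (median -0.01 and -0.02). Most of the named transcription factors were on the lower side. CBF3, one of the cold-induced CBF activators, stood at 5.32, 5.42 and 5.36 CPM in leaf 1, against 17 and 16.2 CPM in leaf 2, CBF2 had ratios of -1.73 and -1.61 and CBF1 of -1.12 and -1.04, and these neighbouring copies may share reads. DREB2A, an activator of drought and heat genes, had ratios of -2.88 and -2.77, and the zinc finger repressor ZAT10 had -1.22 and -1.12. The galactinol synthases GOLS2 and GOLS3, which make raffinose precursors, had ratios of -1.53 and -1.47 and of -1.58 and -1.54, and RD29A, a target of CBF and DREB2 factors, had -1.26 and -1.16 and missed the fold with length class medians removed. On the higher side P5CS1, which makes proline, stood at 538, 547 and 562 CPM in leaf 1 and 57.4 and 55.2 CPM in leaf 2. COR15A, a chloroplast protein of freezing tolerance, had ratios of 1.65 and 1.7, and the touch genes TCH4 and TCH2 had 2.67 and 2.65 and 1.63 and 1.61. The zinc finger factor ZAT12 had ratios of 1.54 and 1.67, and RD29B, a target of abscisic acid signalling, had 2.57 and 4.11.

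Antimicrobial peptides of defence were higher in leaf 1. Of 28 measured genes of ethylene signalling and defensins, 11 were higher in leaf 1 and 2 lower (median 0.36 and 0.36). All 5 measured PDF1 defensins were higher, with HiSeq ratios from 2.91 to 6.08. PDF1.2, the marker of joint jasmonate and ethylene signalling, stood at 652, 641 and 542 CPM in leaf 1, against 76.2 and 73.5 CPM in leaf 2 (ratios 3.1 and 3.02, interval 3.07 to 3.12). PDF1.3 stood at 139, 136 and 133 CPM against 2.05 and 2.02 CPM, and PDF1.2c at 188, 186 and 177 CPM against 25.1 and 23.2 CPM. PDF1.2, PDF1.2b, PDF1.2c and PDF1.3 are near-identical copies, so their separate levels are uncertain while their direction was shared.

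Other peptides and enzymes of this branch were higher as well. THI2.2, a thionin, had 2824, 563 and 428 pairs in the leaf 1 libraries, against 38 and 5 pairs in those of leaf 2, with ratios of 6.32 and 6.74 (interval 5.89 to 6.86). PR4, a hevein-like protein, stood at 61.6, 60.4 and 61.8 CPM in leaf 1 and 20.6 and 19.9 CPM in leaf 2, and PR3, a basic chitinase, had ratios of 2.96 and 3.61. The ethylene receptors ERS2 and ETR2 had ratios of 1.66 and 1.8 and of 1.2 and 1.43. The activators of the defensins were within 2-fold: ORA59 stood at 12.6, 12.7 and 12.5 CPM in leaf 1 and 13.4 and 13.4 CPM in leaf 2, and ERF1 had ratios of -0.09 and -0.16. Of the ethylene response factors, ERF6 and ERF104 were lower, with ratios of -1.9 and -1.87 and of -1.29 and -1.13. The median length of the measured list was 1076 bases, against 1507 over all measured loci, and with length class medians removed 12 members were higher and 2 lower.

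Salicylate genes were close to the background. Of 30 measured, 4 were higher and 0 lower (median 0.04 and 0.09), or 3 and 2 with library size as the only scaling or with length class medians removed. PR1, the late marker of salicylate signalling, stood at 71.2, 71.6 and 70.3 CPM in leaf 1, against 24.9 and 24.5 CPM in leaf 2 (ratios 1.52 and 1.54). PR5, a thaumatin-like protein, stood at 243, 243 and 247 CPM against 116 and 115 CPM and missed the fold under those same 2 settings. PR2, a glucanase, stood at 289, 288 and 295 CPM against 162 and 160 CPM, a ratio of 0.84 and 0.87 and within 2-fold. NIMIN1, which binds the salicylate receptor NPR1, had ratios of 2.31 and 1.61, and WRKY62 had 1.83 and 1.84. Upstream, all 8 genes of salicylate synthesis and its regulators were within 2-fold, with ICS1, the synthesis enzyme, at 0.26 and 0.24, EDS1 at 0.07 and 0.10, PAD4 at 0.09 and 0.09 and the regulator CBP60G at -0.61 and -0.49. WRKY54 and DLO1, a salicylate hydroxylase, lay just short of the fold on the lower side in the multiplex runs, with ratios of -1.04 and -0.97 and of -1.05 and -0.98.

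Of 30 measured genes of pattern-triggered defence, 2 were higher and 1 was lower (median -0.21 and -0.19). With library size as the only scaling 0 were higher and 4 lower, so no direction is given for the list. WRKY33, a factor that drives camalexin synthesis, stood at 55.8, 56.1 and 56.7 CPM in leaf 1, against 149 and 145 CPM in leaf 2. The flagellin receptor FLS2 had ratios of 0.20 and 0.22, the receptor EFR of -0.89 and -0.99 and their coreceptor BAK1 of -0.66 and -0.64. PEPR2, a receptor of the plant's own Pep peptides, had ratios of 1.12 and 1.12 and missed the fold with library size as the only scaling, and NHL10, a marker of flagellin response, of 1.16 and 1.61.

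Jasmonate genes gave 5 higher and 0 lower of 36 measured (median 0.31 and 0.31), and 5 and 4 with library size as the only scaling. The higher genes included vegetative storage proteins and 2 of 10 measured JAZ repressors, of which the other 8 were within 2-fold. VSP2, a vegetative storage protein, stood at 34.9, 34.6 and 33.4 CPM in leaf 1, against 2.28 and 2.77 CPM in leaf 2 (ratios 3.94 and 3.62). TAT3, a tyrosine aminotransferase induced by jasmonate, stood at 50.6, 49.5 and 48.1 CPM against 15.3 and 14.2 CPM. The repressors JAZ10 and JAZ8 had ratios of 2.12 and 1.99 and of 1.52 and 1.44. All 12 genes of jasmonate synthesis were within 2-fold, with AOS at 0.09 and 0.09 and LOX2 at 0.47 and 0.53, and MYC2, the main activator, stood at 109, 109 and 106 CPM in leaf 1 and 207 and 206 CPM in leaf 2.

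The run types gave different ratios for VSP1, another vegetative storage protein. It had 851, 248 and 262 pairs in the leaf 1 libraries, against 118 and 106 pairs in those of leaf 2, and its ratio was 2.98 between the HiSeq runs and 1.42 between the multiplex runs. VSP1 stood at 2989 and 2699 CPM in flower bud 1 and 2, which were also sequenced in multiplex. GRP17, a pollen coat gene, had 2, 30 and 49 pairs in the leaf 1 libraries, against 0 and 39 pairs in those of leaf 2, so the multiplex runs of leaves held pairs of a bud gene that their HiSeq runs held at 2 or fewer. The part of such pairs in the VSP1 ratio was not tested.

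**Figure D4:**
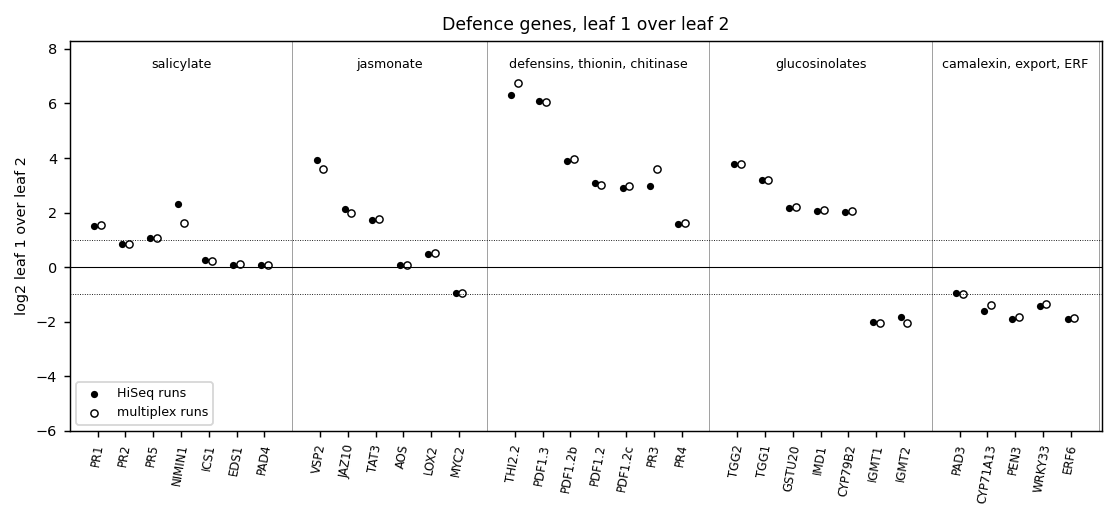
Log2 ratio of leaf 1 over leaf 2 for defence genes by branch, with filled points for the HiSeq runs and open points for the multiplex runs, and dotted lines at 2-fold. Defensins, the thionin and both TGG genes lie well above the upper line, genes of salicylate synthesis lie near 0, and IGMT1, PEN3 and ERF6 lie under the lower line.

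Glucosinolates are defence compounds that myrosinases break down on wounding. Of 43 measured genes of glucosinolates and camalexin, 16 were higher in leaf 1 and 5 lower (median 0.70 and 0.71). The myrosinase TGG1 stood at 1475, 1468 and 1439 CPM in leaf 1, against 162 and 159 CPM in leaf 2, and its near copy TGG2 at 969, 966 and 1017 CPM against 70.5 and 71.6 CPM (ratios 3.78 and 3.79). In the branch that starts from methionine, 10 of 18 were higher and 1 lower. GSTU20, a glutathione transferase of that branch, had ratios of 2.17 and 2.22, IMD1, a dehydrogenase of methionine chain elongation, had 2.06 and 2.08, and CYP79F1, the first cytochrome P450, had 1.25 and 1.29. Its MYB regulators MYB76 and MYB29 had ratios of 2.0 and 1.62 and of 1.48 and 1.34, and MYB28 had 0.43 and 0.43. MAM3, a chain elongation synthase, was the lower gene, with ratios of -1.15 and -1.06.

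The branch that starts from tryptophan was divided, with 3 higher and 2 lower of 13. CYP79B2 and CYP79B3, which begin the branch, had ratios of 2.03 and 2.04 and of 1.87 and 1.79. IGMT1 and IGMT2, methyltransferases that modify indole glucosinolates during defence and are close copies, had ratios of -2.01 and -2.06 and of -1.82 and -2.04. PEN3, an ABC transporter that exports indole defence compounds, stood at 721, 715 and 777 CPM in leaf 1, against 2678 and 2630.4 CPM in leaf 2. CYP71A13, of camalexin synthesis, had ratios of -1.59 and -1.37, and PAD3, its last enzyme, had -0.96 and -0.97, short of the fold.

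In metabolism, light harvesting was higher in leaf 1. Of 53 nuclear genes of the light reactions, 21 were higher and 0 lower (median 0.92 and 0.93). Among the major antenna proteins LHCB1 to LHCB3, 8 of 9 were higher, with a median of 2.28, while the photosystem II subunits had 1 of 10 higher and a median of 0.69. LHCB3 stood at 7105, 7082 and 7032 CPM in leaf 1, against 1463 and 1437 CPM in leaf 2. LHCB1.4 stood at 750.3, 755 and 860.1 CPM against 42.1 and 39.4 CPM (ratios 4.16 and 4.35), and LHCB2.3 at 1514, 1536 and 1546 CPM against 147 and 149.5 CPM. LHCB1.1 to LHCB1.3 and LHCB2.1 with LHCB2.2 are near-identical copies and uncertain one by one. As shares of all counted pairs, the listed LHCB genes made up 6.76%, 6.80% and 7.17% of the leaf 1 libraries, against 2.62% and 2.63% of those of leaf 2.

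Photosystem I had 5 of 12 subunits higher (median 0.97), led by PSAN with ratios of 1.53 and 1.53. ELIP2, a light-stress protein of the antenna family, had ratios of 2.16 and 2.18. The light reaction genes were short, with a median length of 1020 bases, and with length class medians removed 19 were higher and their median, averaged over run types, was 0.81. Transcripts encoded in the chloroplast went the other way as a share of pairs, at 0.0277%, 0.0281% and 0.0275% in leaf 1, against 0.0502% and 0.0493% in leaf 2, in libraries made by polyA selection.

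Carbon fixation and photorespiration were nearer the background, with 5 of 31 higher and 0 lower (median 0.42 and 0.45). The higher ones were the carbonic anhydrases CA1 and CA2, with ratios of 1.71 and 1.76 and of 1.21 and 1.26, GAPA2, a subunit of chloroplast glyceraldehyde phosphate dehydrogenase, with 1.4 and 1.38, and the Rubisco small subunits RBCS2B and RBCS1A, with 1.24 and 1.27 and 1.14 and 1.21. RBCS1A missed the fold with library size as the only scaling and with length class medians removed. The photorespiratory genes GOX1 and SHM1 had ratios of -0.06 and 0.03 and of 0.01 and 0.00.

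Several genes of starch breakdown were lower in leaf 1. Over the list of starch and sugar transport, 2 of 45 were higher and 10 lower (median -0.25 and -0.20). Of 12 genes grouped as starch breakdown, 6 were lower, 0 higher and 6 within 2-fold, with a median of -1.18. This group was drawn after the values were seen. It leaves out the beta-amylase genes BAM9 and BAM5, the higher members of the list, so its 0 higher rests on the grouping. With length class medians removed 9 of the list were lower and its median, averaged over run types, was -0.07. GWD1, which phosphorylates starch to open the granule, stood at 177, 179 and 181 CPM in leaf 1, against 785 and 771 CPM in leaf 2 (ratios -2.15 and -2.1, interval -2.17 to -2.13). The second dikinase PWD had ratios of -1.4 and -1.35 and the phosphatase SEX4 had -1.52 and -1.52. ISA3, the debranching enzyme of breakdown, stood at 31.2, 31.7 and 32.8 CPM in leaf 1, against 200.1 and 195 CPM in leaf 2. DPE1 and DPE2, which process the released maltotriose and maltose, had ratios of -2.72 and -2.75 and of -1.52 and -1.51. BAM3, the main beta-amylase of leaves at night, did not share this and stood at 879, 879 and 897 CPM in leaf 1 and 873 and 854 CPM in leaf 2.

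Starch synthesis genes were mostly within 2-fold, with 2 of 12 lower, SBE2.1 at -1.32 and -1.33 and ISA1 at -1.1 and -1.03, and a median of 0.24. The higher members of the list were BAM9, a beta-amylase relative without activity, at 1.73 and 1.75, and BAM5, an extraplastidial beta-amylase, at 1.54 and 1.48. Of the sugar carriers, GPT2, a glucose phosphate translocator induced by sugar, stood at 10.1, 9.66 and 10.7 CPM in leaf 1, against 74.3 and 71.7 CPM in leaf 2. STP13, a hexose importer of the plasma membrane, stood at 25.7, 24.3 and 23.62 CPM against 191 and 187 CPM. The sucrose exporters SWEET11 and SWEET12 and the loader SUC2 had HiSeq ratios of -0.25, 0.20 and -0.32.

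Among 16 measured genes of the sugar starvation response, 2 were higher and 2 lower (median -0.04 and 0.04). DIN6, an asparagine synthetase induced in the dark, had 843, 210 and 157 pairs in the leaf 1 libraries, against 32 and 9 pairs in those of leaf 2 (ratios 4.82 and 4.48, interval 4.35 to 5.42). DIN1 had ratios of 1.71 and 1.72. BCAT2, an aminotransferase of branched-chain amino acids, stood at 15.9, 15.8 and 17 CPM in leaf 1, against 81 and 79.8 CPM in leaf 2, and BZIP11, a factor repressed by sucrose at translation, had ratios of -1.65 and -1.81.

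Nitrogen genes leaned lower. Of 32 measured genes of nitrogen and sulphur, 2 were higher and 7 lower (median -0.19 and -0.15). NIA1, a nitrate reductase, stood at 89.3, 88.1 and 94.5 CPM in leaf 1, against 331 and 319.6 CPM in leaf 2, while its partner NIA2 had ratios of -0.03 and 0.08. The cytosolic glutamine synthetases GLN1;1 and GLN1;4 had ratios of -1.79 and -1.74 and of -1.87 and -1.77, and the plastid enzyme GLN2 had 0.09 and 0.16. GDH1, a glutamate dehydrogenase, had ratios of -1.14 and -1.14, and the nitrate transporters NRT2.1 and NRT1.7 had -2.22 and -2.17 and -1.17 and -1.1, where NRT1.7 missed the fold with length class medians removed. The higher members were LBD38 and LBD39, repressors of nitrate-responsive genes. LBD38 had ratios of 2.2 and 1.85, and LBD39 had 119, 33 and 27 pairs in the leaf 1 libraries, against 1 and 0 pairs in those of leaf 2, which is 169-fold over summed libraries (exact 95% counting interval 30 to 6717). In sulphate uptake and assimilation all 8 measured genes were within 2-fold, and LSU1, induced by sulphur deficiency, was lower with ratios of -1.03 and -1.16.

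Of 8 measured iron genes, 2 were higher and 1 was lower. The ferritins FER3 and FER4, iron stores of plastids, stood at 34.4, 35.1 and 31.5 CPM in leaf 1 against 7.8 and 8.0 CPM in leaf 2, and at 40, 40.3 and 35.8 CPM against 14.3 and 14.2 CPM. BHLH101, a factor induced by iron deficiency, had ratios of -3.49 and -2.97. Its relatives BHLH38, BHLH39 and BHLH100 were too low to count as measured and are named after their values were seen. BHLH39 had 0, 0 and 0 pairs in the leaf 1 libraries, against 37 and 12 pairs in those of leaf 2. With leaf 1 set to a floor of 3 pairs over its summed libraries, this is 17.3-fold lower in leaf 1. That value leaves out the counting error of leaf 2.

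Phenylpropanoid genes went both ways. Of 28 measured genes, 12 were higher and 6 lower (median 0.65 and 0.60). They were divided into 2 groups after the values were seen. The group of entry enzymes and the flavonol branch had 10 of 16 higher and 0 lower, with a median of 1.44. F3H was placed in this group and the hydroxylase TT7 in that of the anthocyanin branch, and the 0 lower rests on such placement. PAL1, which starts the pathway from phenylalanine, stood at 160.2, 161 and 164 CPM in leaf 1, against 24.6 and 23.9 CPM in leaf 2, and PAL4 at 13.2, 13.2 and 13.9 CPM against 0.406 and 0.535 CPM. F3H, shared by flavonols and anthocyanins, had ratios of 1.79 and 1.8, FLS1, the flavonol synthase, had 1.77 and 1.72, and CHS, the chalcone synthase, had 0.99 and 1.09, short of the fold in the HiSeq runs.

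In the group of the anthocyanin branch 2 of 12 were higher and 6 lower, with a median of -1.31. DFR, the first enzyme of that branch, stood at 3.49, 3.48 and 3.23 CPM in leaf 1, against 39.5 and 37.7 CPM in leaf 2 (ratios -3.5 and -3.49, interval -3.62 to -3.39). TT19, a glutathione transferase that carries anthocyanins, stood at 3.81, 3.68 and 3.83 CPM against 31.5 and 30.3 CPM. LDOX had ratios of -2.31 and -2.25, the glycosyltransferase UGT79B1 had -3.75 and -3.33, the hydroxylase TT7 had -2.35 and -2.16 and the regulator TT8 had -1.91 and -1.91. PAP1 and PAP2, the MYB activators, had ratios of -0.69 and -0.80 and of -0.70 and -0.64, within 2-fold. The higher members, MYB113 and EGL3, stood at under 1 CPM in every library.

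**Figure D5:**
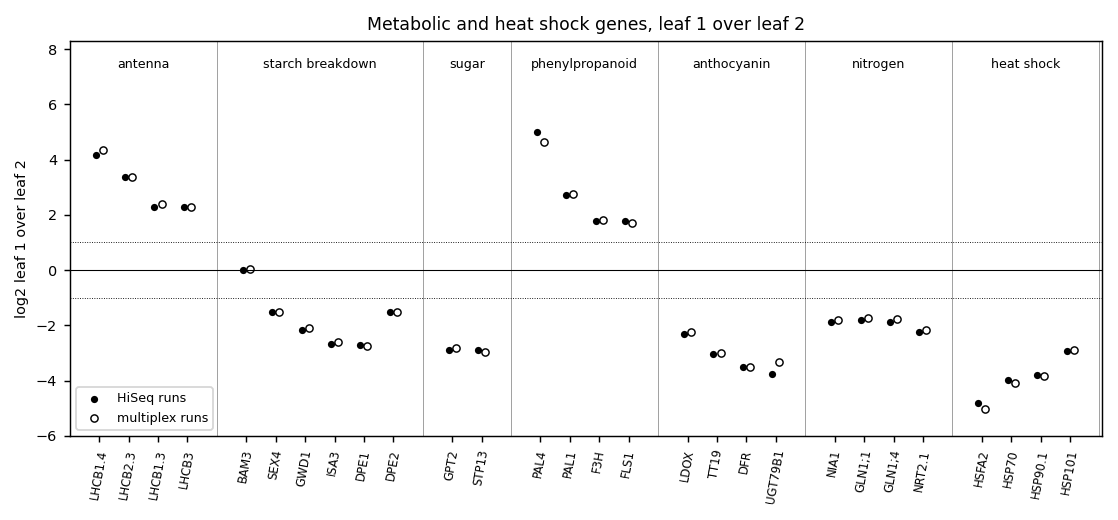
Log2 ratio of leaf 1 over leaf 2 for metabolic and heat shock genes, with filled points for the HiSeq runs and open points for the multiplex runs, and dotted lines at 2-fold. The plotted genes are a selection. Those of the antenna and of the phenylpropanoid and flavonol steps lie above the lines. The plotted starch breakdown genes except BAM3, and the plotted sugar carriers, anthocyanin, nitrogen and heat shock genes, lie under them. Of all listed sugar transport genes 9 of 11 were within 2-fold, of nitrate and ammonium assimilation genes 9 of 13, and of the starch breakdown group 6 of 12.

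Senescence genes and cytosolic ribosomal proteins were largely within 2-fold. Of 19 measured senescence genes, 0 were higher and 2 lower, the lower ones being NYC1, a chlorophyll b reductase, at -1.01 and -1.04, and NYE2, of chlorophyll breakdown, at -1.26 and -1.48. NYC1 missed the fold with DESeq2 size factors and with length class medians removed. All 13 cytosolic ribosomal protein genes, short loci with a median length of 876 bases, were within 2-fold, with medians of 0.11 and 0.08. Of 9 cell cycle genes 6 were higher in leaf 1 and 0 lower (median 1.82 and 1.71). Their levels were low: 4 of the 9 stood under 1 CPM in the HiSeq runs of both samples. The list summed to 13.3, 13.7 and 13.7 CPM in leaf 1, against 4.18 and 4.3 CPM in leaf 2. MCM2, a subunit of the replication helicase, stood at 3.29, 3.6 and 3.08 CPM in leaf 1, against 0.856 and 1.02 CPM in leaf 2, and KNOLLE, a syntaxin of cell division, at 2.05, 2.02 and 2.13 CPM against 0.618 and 0.656 CPM. Markers of the xylem moved with them, as XCP1, IRX3 and XCP2, genes of vessel formation, had ratios of 2.37 and 2.56, 1.59 and 1.67 and 1.34 and 1.39, and the phloem markers SUC2, PP2-A1 and APL had HiSeq ratios of -0.32, -0.19 and -0.70. Summed, these 6 markers stood at 529.8, 528 and 533 CPM in leaf 1, against 615 and 604 CPM in leaf 2. The part of cell types in these results was not tested.

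The 10 loci with the largest ratios in each direction were taken from those that averaged 10 CPM or more. On the higher side stood wall genes: XTH4, a xyloglucan transglucosylase, at 73.8, 72.8 and 72.1 CPM in leaf 1, against 0.515 and 0.583 CPM in leaf 2 (ratios 7.15 and 6.95), XTH7 with 6.3 and 6.24, the arabinogalactan protein AGP17 with 5.57 and 5.77 and the fasciclin-like FLA2 with 4.55 and 4.67. Defence-related annotations followed: PDF1.3, the chitinase family locus AT2G43590 with 5.23 and 5.13, the thionin AT1G66100 at 245, 248 and 267 CPM against 7.53 and 7.85 CPM, and the mannose-binding lectin AT1G78850 with 4.68 and 4.78. AT3G16670, annotated in the Ole e 1 and extensin family, stood at 97.6, 95.5 and 109 CPM in leaf 1 and 1.04 and 0.972 CPM in leaf 2, and DOT1, a glycine-rich protein, had ratios of 4.52 and 4.66.

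On the lower side stood 2 loci with DnaJ domains, AT5G23240 at 3.56, 3.14 and 3.02 CPM in leaf 1, against 105 and 101 CPM in leaf 2, and AT1G56300 with ratios of -4.88 and -4.82. HSFA2, HSP70, HSP90.1 and PRR5 were among these 10 loci. The others were AT5G23235, given no product in the reference and a neighbour of AT5G23240 whose reads may not be separable from it, with ratios of -4.15 and -4.16, the nudix hydrolase NUDT24 at 4.99, 4.6 and 4.61 CPM against 82.9 and 82.9 CPM, the nitrate transporter NRT2.5 at 4.92, 5.24 and 4.06 CPM against 60.9 and 59.8 CPM, and AT5G06570, of the alpha/beta hydrolase superfamily, with -3.7 and -3.54.

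The other pairs of like-labelled samples put the size of these differences in context. Over 11210 loci at 5 CPM or more in all 6 biological samples, with runs summed, leaf 1 and leaf 2 differed by at least 2-fold at 7.49% (5.13% higher and 2.36% lower in leaf 1), flower bud 1 and 2 at 8.59% (1.42% and 7.17%), and leaf 3 and 4 at 0.134% (0.116% and 0.0178%). The median absolute log2 ratio was 0.32 between leaf 1 and leaf 2, 0.38 between the flower bud samples and 0.12 between leaf 3 and 4. By the rule used for leaves, 3.14% of 21145 measured loci were higher and 6.75% lower in flower bud 1 than in flower bud 2, a comparison that shares no sample with the leaf pair. Of the loci measured in both pairs, 198 were higher in leaf 1 and in flower bud 1, which is 10.4% of the 1910 higher in leaf 1 and 45.2% of the 438 higher in flower bud 1, while 84 of those higher in leaf 1 were lower in flower bud 1. Another 197 were lower in both, 24.1% of the 818 lower in leaf 1 and 15.0% of the 1312 lower in flower bud 1, while 12 of those lower in leaf 1 were higher in flower bud 1. Of the 18604 loci measured in both pairs, 2.35% were higher and 7.05% lower in flower bud 1. For the leaf pair the shares were 10.7% higher and 4.9% lower in leaf 1, over the 19321 loci measured in that pair. LHY stood at 214 and 12.5 CPM in flower bud 1 and 2, PRR5 at 1.43 and 8.72 CPM and GWD1 at 50.7 and 149 CPM. In the same order morning clock genes summed to 824 and 474 CPM and evening ones to 104 and 204 CPM. Other lists went the other way from the leaf pair. Light reaction genes summed to 24649 and 28623 CPM, and genes of camalexin and glucosinolates to 3845 and 5520 CPM.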

How the data were processed

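Read pairs from 11 libraries were analysed, 5 of them from leaf 1 and leaf 2. Bowtie2 2.0 was used, per the submitters' processing notes. The deposited tables hold 28094 loci, each with a raw count of proper read pairs and, per the file headers, the same after a limit on insert size. That limit was 1000 for the leaf 1 HiSeq library and 500 for the other 10. No source used here gives the genome build, strand use or the treatment of reads that match several loci, so near-identical copies are uncertain and no coordinates are printed. Names came from TAIR10.1, which matched 27320 loci.

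Counts were scaled in R 4.3.3 by TMM factors from edgeR 4.0.16, relative to the HiSeq run of leaf 1. Ratios used a prior count of 0.5. Leaf 1 depths ran from 37137723 to 192817049 pairs, and leaf 2 depths were 37517338 and 187815247, so that 3 pairs, the most a count of 0 allows, are 0.0148 to 0.0864 CPM. Intervals are exact 95% binomial intervals and, like this limit, cover counting error only. With 1 biological sample on each side no test was run, and calls rest on at least 2-fold in both run types.

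Members and lists were chosen with earlier results of these data known. Of 591 entries, 18 lacked a matching name in the reference and were left out, which leaves 20 functional and 9 marker lists. Named were, per list and direction, up to 6 called members with 50 or more pairs in the higher sample in each run type, ranked by the smaller absolute ratio of the run types, all morning and evening clock genes, PR1, PR2 and PR5, and 10 leading loci in each direction. Other members that are named were chosen after their values were seen, and so were the division of lists by role and the removal of length class medians. Alternatives were DESeq2 1.42.0 size factors, library size, upper quartile factors, other filters, prior counts and folds, summed runs and leaving out each run.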

Additional observations from a re-analysis of the deposited data

How the results depend on the processing

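The counts of 2072 higher and 947 lower loci were within 1.5 times under DESeq2 size factors, upper quartile factors, a prior count of 5, the insert size limit and length class medians removed. The lower count was 1444 with library size only, 1495 with no filter on low counts, and 1473 with runs summed. A minimum of 200 pairs gave 1274 higher and 581 lower, since fewer loci were measured. A fold of 1.5 gave 3624 and 2429, and a fold of 4 gave 624 and 147. Leaving out 1 run at a time gave 1767 to 2604 higher and 900 to 1471 lower. Without the multiplex run of leaf 2 the HiSeq runs alone set the calls, which gave the 1471. Under library size only, calls were 53.1% higher, against 68.6% with TMM. Among values of named loci under the alternatives, 2262 kept their direction and call, 99 no longer passed, 5 newly passed, and 2, for LNK1 and ZTL within 2-fold, changed sign with length class medians removed. No paired analysis was possible because each side is 1 biological sample and no test was run. Depth limits the genes under 1 CPM, which rest on few pairs in the multiplex runs.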

Other observations

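Gene families outside the lists were also described, by the symbols and products of the reference. They were chosen after their values were seen, and no test was run. Families of the cell wall differed in how many members were higher in leaf 1. Of 22 measured xyloglucan transglucosylases of the XTH family, 15 were higher and 0 lower, of 26 arabinogalactan proteins 18 and 0, of 15 fasciclin-like proteins 12 and 1, and of 15 expansins 7 and 0, beside 10.7% and 4.9% of all measured loci. Their median HiSeq ratios were 2.62, 1.51, 1.97 and 0.78. EXPA11 stood at 37.4, 37.8 and 39.7 CPM in leaf 1, against 7.1 and 7.07 CPM in leaf 2, EXPA6 at 94.9, 91.8 and 93.9 CPM against 23.63 and 23.3 CPM, and FLA18 at 122, 124 and 121 CPM against 28.7 and 27.8 CPM. With library size as the only scaling the higher counts were 15, 14, 12 and 7. Of 7 cellulose synthases with a CESA symbol 2 were higher and 1 lower, or 1 and 1 with library size as the only scaling, and CESA1, CESA2 and CESA6 were within 2-fold. Of 7 wall-associated kinases 0 were higher and 2 lower, and of 15 tubulins 4 and 0.

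Genes of auxin response and water transport were on the higher side. Of 15 small auxin-up RNAs with a SAUR symbol 12 were higher and 0 lower (median 1.93), of 17 measured IAA repressors 6 and 0, and of 16 aquaporins 8 and 0. Many of the 15 are neighbouring loci that may share reads, and family members without that symbol were not counted. With library size as the only scaling the higher counts were 10, 5 and 7. IAA7 stood at 158, 159.8 and 157 CPM in leaf 1 and 53.3 and 52.7 CPM in leaf 2, and the vacuolar aquaporin DELTA-TIP at 138, 141 and 139 CPM and 9.72 and 9.92 CPM. Of 49 WRKY transcription factors 3 (6.1%) were higher and 5 (10.2%) lower, and of 51 NAC factors 6 (11.8%) and 7 (13.7%). Both lower shares were above the 4.9% of all measured loci, on few members, and the median HiSeq ratios were -0.18 and -0.26. With library size as the only scaling the counts were 2 and 9, and 4 and 10. Of 16 B-box factors 4 were higher and 1 lower, or 1 and 1 under that scaling, and of 29 glutathione transferases 5 and 2.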
